A study of Mus with 2 samples.

Results

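Expression of 10 genes of purine breakdown, purine salvage and adenosine sensing was followed in bone marrow derived macrophages (BMDMs) given the synthetic FXR agonist GW4064 or its solvent DMSO. They were Gda, Xdh, Pnp and Ada for breakdown, Hprt and Adk for salvage, Nt5e and Entpd1 for adenosine production outside the cell, and Adora2a and Adora2b for adenosine receptors. The genes were selected on their place in the pathway and on a measured value, the difference of Gda between the arrays on both of its probes, so the differences below are a description without a test. They were 10 of the 20060 genes that the array could be matched to. BMDMs of male C57BL6/J mice aged 10 weeks were grown for 7 d with 10 ng/mL of M-CSF, and both cultures then received 10 ng/mL of IL-4 for 24 h, which sets M2 conditions. During these 24 h, 1 culture also received 10 µM of GW4064 and the other DMSO. No culture without IL-4 and no second array of either condition was analysed here, and how many mice stood behind each culture is not given in the sources used here. The free-text description of the GW4064 sample names DMSO, whereas its title, source and treatment field name GW4064, and the latter were used.

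Purine nucleotides are taken apart to nucleosides and bases, which are either returned to nucleotides by salvage enzymes or oxidised to uric acid. Adenosine is deaminated to inosine, the nucleosides are split to hypoxanthine and guanine, guanine is deaminated to xanthine, and xanthine dehydrogenase carries both branches on to uric acid. Outside the cell, CD39 and CD73 turn ATP by way of AMP into adenosine, which macrophages sense with adenosine receptors. Of these, the A2a and A2b receptors raise cAMP and are known to dampen inflammatory responses.

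Each condition was read on 1 Agilent 1-colour array of the same slide, on which the brightness of a spot (the processed signal, in intensity units) follows the amount of labelled RNA. Log2 signals were set to 0 at the 75th percentile of each array, and a difference is the value of GW4064 minus that of DMSO. A probe is called detected where the scanner software marks its spot as well above background. Since there was 1 array per condition, the spread between cultures is unknown, and having so few arrays limits how precise any value can be. As a technical error, the SD of the difference over the spots of probes printed 10 times was taken, as the median of the 40 such probes nearest in level, and is called copy SD below. Copy SD covers only spots of the same 2 arrays. The scanner software also gives an error for each spot, called software error below when combined over both arrays. For the measured member probes printed once it was larger, for example 0.20 for Ada and Xdh, beside copy SDs of 0.065 and 0.075. As another scaling, 8 probes of spike-in control RNA were used to centre the arrays, which lowers each difference by 0.19 and moves the median over all measured genes from 0.0068 to -0.18. All 9 macrophage markers on the array were detected on both arrays, with differences between -0.34 and 0.13. Their summed signal was 522976 for DMSO and 516183 for GW4064. This sum and those below add the brightest probe of each gene before scaling. The 75th percentile was 1209 for DMSO and 1265 for GW4064, so the sums understate a decrease slightly against the scaled differences. Markers of other cells were not level between the cultures, since 8 of 9 measured stromal markers were lower with GW4064 (summed signal 36847 and 20860) and 7 of 9 neutrophil markers were lower (13956 and 9067). Of the lymphocyte markers, 3 of 6 for T cells were detected on each array, with summed signals of 1689 and 1661, and 2 of 5 for B cells were detected with DMSO and 1 with GW4064 (342 and 258). Cd3e, Cd4, Lck and Cd79b were among those detected on both arrays, and Cd3d, Cd3g, Cd8a, Cd79a and Pax5 among those detected on neither. Cd4 was detected on 1 probe only, with signals of 1303 and 1228, which make up most of the T cell sums. Its other probe, printed 10 times, was detected on neither array, with signals of 10.3 and 11.5. The part of these cells in the differences below was not tested, and fewer cells of a type cannot be told apart from less RNA per cell.

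The 10 genes were covered by 14 probes at 23 spots, none of which was marked as uneven or saturated. Of the 10 genes, 9 were detected on both arrays and Nt5e on neither. Gda and Adora2a were 2-fold or more higher with GW4064, a log2 difference of at least 1, and 0 members were 2-fold or more lower. Over all 13532 measured genes 2.04% were higher and 2.71% lower by this amount. These shares include genes detected on 1 array only. With detection required on both arrays, which all 9 members met, 107 of 12578 genes were higher and 164 lower. No test was made of these counts, since Gda was part of the choice of genes. The other 7 measured members lay between -0.93 and 0.18, and the median of the 9 was -0.079, beside 0.0068 over all measured genes.

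**Figure D1:**
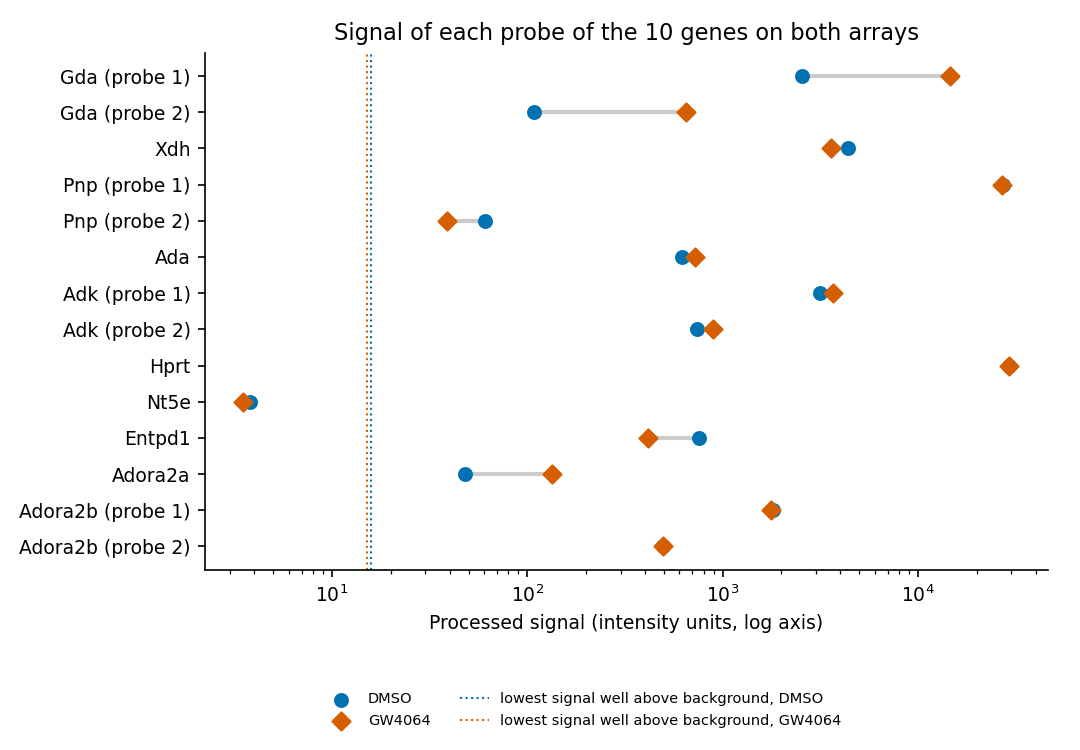
Processed signal (intensity units, log axis) of each of the 14 probes of the 10 genes on the DMSO array (circles) and the GW4064 array (diamonds), with dotted lines at the lowest signal of a detected probe, 15.7 for DMSO and 15.1 for GW4064. Both Gda probes and the Adora2a probe lie further right with GW4064, Entpd1 and the dimmer Pnp probe lie further left, and Nt5e is below the lines on both arrays; probe 1 is the brighter probe of a gene.

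Gda encodes guanine deaminase, which turns guanine into xanthine and so commits it to oxidation in place of salvage. Both of its probes, matched to NM_010266, were brighter with GW4064. The probe A_55_P2097478 had a signal of 2548 with DMSO and 14511 with GW4064, a log2 difference of 2.44, or 5.44-fold. The second probe, A_52_P116006, had signals of 109 and 648, a difference of 2.51, or 5.71-fold. In this setting the probes gave nearly the same difference although their own brightness was far apart, and the gap of 0.069 was below its copy SD of 0.12. With another background correction, normexp with an offset of 50, they lay further apart, at 2.36 for the first probe and 1.93 for the second. Such an offset shrinks the difference of a dim probe more than that of a bright one. This wider gap therefore does not show that the probes disagree. The rise on both probes was part of the choice of genes, so their likeness is no independent support. Averaged over both, Gda was 5.57-fold higher (2.48). Among the 21707 probes detected with both DMSO and GW4064, the second and first probe held ranks 15 and 18 from the largest increase. Of the 1000 probes nearest in level to each, 7 and 5 were 2-fold or more higher. Around neither spot was there another spot with an 8-fold difference or more within 300 µm. Such spots were counted whether detected or not, and damage to the slide was not tested. Areas with at least 2 of them within this distance held 16.5% of the spots. The median difference of the spots neighbouring the second and first probe was -0.20 and -0.12.

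The differences of the enzymes around guanine deaminase were smaller. Ada, adenosine deaminase, which turns adenosine into inosine, was matched by A_51_P430423 (NM_007398). Its signal was 618 with DMSO and 723 with GW4064, a difference of 0.16 with a copy SD of 0.065. This difference was below its software error of 0.20. With spike-in centring, Ada had -0.03, so that its direction depended on the scaling. Xdh, xanthine dehydrogenase, which makes uric acid from the xanthine that guanine deaminase delivers, was read by A_51_P312121 (NM_011723). Its signal was 4398 with DMSO and 3575 with GW4064, a difference of -0.36 or 1.29-fold lower. This was beyond its copy SD of 0.075, yet within the range of -0.37 to 0.40 that the 1000 probes nearest in level spanned once the 25 highest and the 25 lowest were set aside. Between these enzymes, the one that makes xanthine from guanine was brighter with GW4064 and the one that consumes it was slightly dimmer.

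Pnp, purine nucleoside phosphorylase, splits inosine and guanosine into base and sugar phosphate, which makes it the supplier of guanine. Its probes, both matched to NM_013632, did not give the same value. The brighter one, A_66_P138137, had signals of 27245 and 26845 and a difference of -0.087 with a copy SD of 0.065. The dimmer one, A_55_P2018841, had signals of 60.5 and 38.7 and a difference of -0.71 with a copy SD of 0.21. The gap of 0.62 between them exceeded its copy SD of 0.22, and the mean over both of -0.40 was set by the dimmer probe. The spots had 5 and 2 neighbours within 300 µm with an 8-fold difference, and the part of the slide in the gap was not tested.

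**Figure D2:**
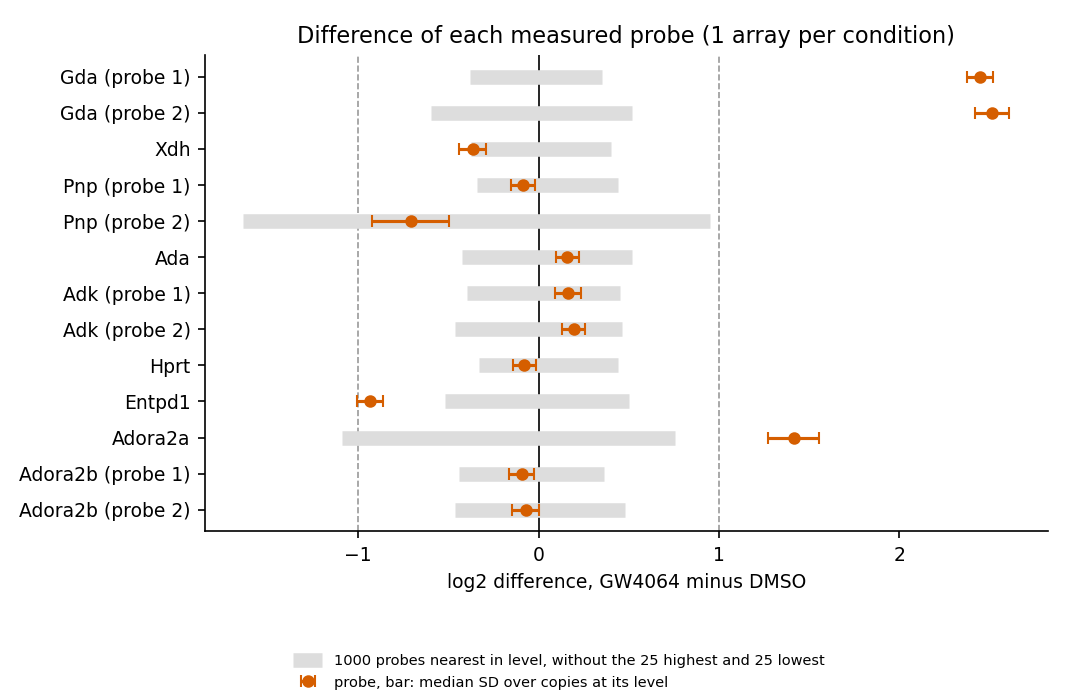
Log2 difference (GW4064 minus DMSO) of each of the 13 measured probes (points), with bars of 1 copy SD to each side, and, in grey, the range of the 1000 probes nearest in level without the 25 highest and the 25 lowest. Both Gda probes (2.44 and 2.51), Adora2a (1.41) and Entpd1 (-0.93) lie outside their grey range, and dashed lines mark a 2-fold difference.

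Both salvage enzymes among the members were far from the 2-fold threshold. Hprt, hypoxanthine-guanine phosphoribosyltransferase, returns hypoxanthine and guanine to nucleotides and so competes with guanine deaminase for guanine. Its probe A_51_P239673 (NM_013556) was printed 10 times. With DMSO the lowest, median and highest spot had signals of 26534, 29483 and 31154, and with GW4064 of 26873, 29393 and 30271. The spots of both arrays overlapped almost fully in raw signal, and after scaling the mean difference was -0.079 ± 0.055 (SD over 10 spots of 1 array each), with 9 of the 10 spots below 0. The spots repeat the same RNA and are not replicates of the culture. Hprt is also the gene to which the study's methods scale their qPCR values. Set relative to it, each difference given here would be shifted upwards by the size of that small mean.

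Adk, adenosine kinase, turns adenosine back into AMP and competes with adenosine deaminase for it. Its probe A_51_P130666 had signals of 3145 and 3688, a difference of 0.16, and A_55_P2089820 had 743 and 890.0, a difference of 0.19, both matched to NM_134079. Both differences were below the software error of 0.20 of each probe. The probes lay within 0.03 of each other, less than the copy SD of 0.098 for that gap. The brighter spot had 10 neighbours with an 8-fold difference within 300 µm and the dimmer one had 0, and the dimmer one alone gave 0.19. With spike-in centring the gene had -0.011, so that, as for Ada, no direction held under every scaling.

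Of the ectonucleotidases that make adenosine outside the cell, Entpd1 was lower with GW4064 and Nt5e was not detected. Entpd1 encodes CD39, which removes phosphates from ATP and ADP to leave AMP. Its probe A_55_P2032853 (NM_009848) had a signal of 758 with DMSO and 415 with GW4064, a difference of -0.93 with a copy SD of 0.072, or 1.91-fold lower. Entpd1 was the member with the largest decrease, and its probe held rank 328 from the largest decrease of all 21707. Of the 1000 probes nearest in level 10 were 2-fold or more lower, and 0 spots within 300 µm had an 8-fold difference. The value was just short of the 2-fold threshold and passed it with spike-in centring (-1.13). Stromal and neutrophil markers were lower as well, as given above, and their part in Entpd1 was not tested.

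Nt5e encodes CD73, which makes adenosine from AMP. Its single probe, A_52_P574668 (NM_011851), had signals of 3.79 with DMSO and 3.52 with GW4064. Both were below the lowest signals of a detected probe, 15.7 and 15.1, so that no difference is given for Nt5e. A low level under this limit would not have been seen.

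Of the adenosine receptors, Adora2a was higher with GW4064 and Adora2b differed little. Adora2a encodes the adenosine A2a receptor, which binds adenosine with high affinity and signals through cAMP. The signal of its only probe, A_55_P2109382 (NM_009630), was 48.2 with DMSO and 134 with GW4064, and it was detected on both arrays. The difference was 1.41 with a copy SD of 0.14, or 2.66-fold, which put it at rank 73 among the 21707 probes. Of the 1000 probes nearest in level 17 were 2-fold or more higher and 37 lower, and 0 neighbours within 300 µm had an 8-fold difference. Because the signal was low, the size depended on the background correction. A normexp correction with an offset of 50 gave 0.71, below the 2-fold threshold. The probe was printed once, so that it has no copies of its own to compare.

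Adora2b encodes the A2b receptor, which needs higher adenosine levels and also signals through cAMP. Its probe A_55_P1993503 had signals of 1806 and 1771, and A_66_P118906 had 496 and 494, both matched to NM_007413. These gave differences of -0.093 and -0.071, which lay 0.022 apart and were about as large as the copy SD of each, 0.071 and 0.076. Of the remaining receptors of the family, Adora3 had signals of 256 and 215, a difference of -0.32 with a copy SD of 0.10, and Adora1 was detected on neither array, with signals of 3.25 and 3.12. Of the 3 measured receptor genes only Adora2a was higher with GW4064. It was so under all 12 settings tried, some of which could not change its value.

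**Figure D3:**
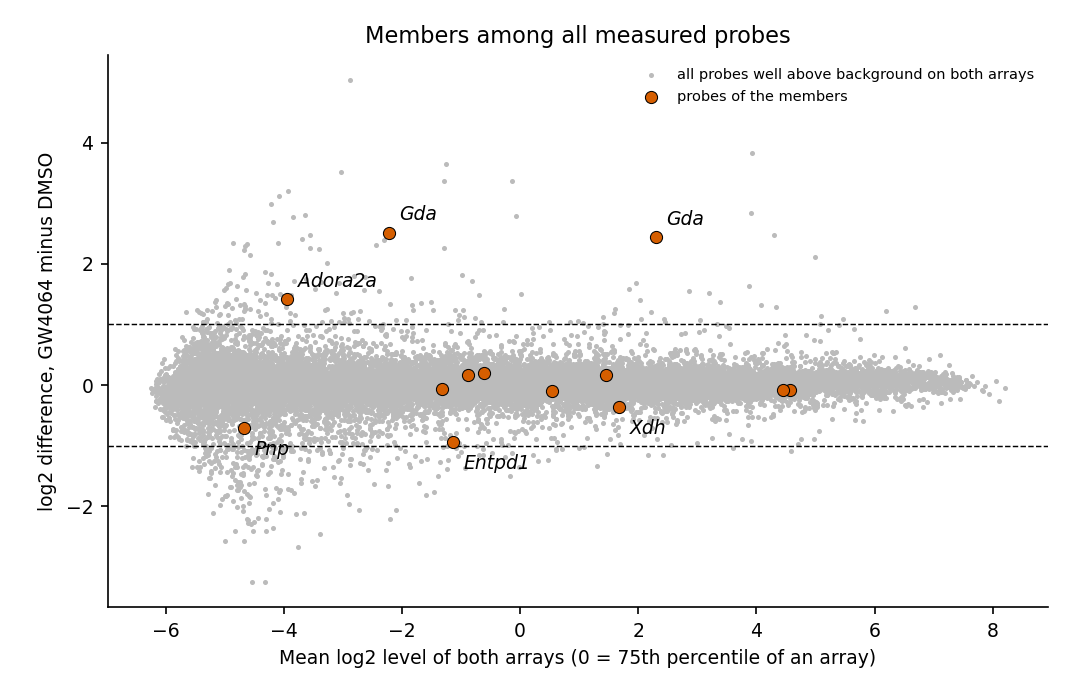
Log2 difference (GW4064 minus DMSO) of the 21707 probes detected with both DMSO and GW4064 (grey) against their mean log2 level, where 0 is the 75th percentile of an array, with the 13 measured probes of the members in orange. The Gda probes lie above the cloud at a low and at a high level, Adora2a lies at a low level where the cloud is wider, and dashed lines mark a 2-fold difference.

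The other genes of the pathway were read from lists that cover breakdown, salvage, de novo synthesis, nucleotidases, receptors and transporters. Among 82 such genes on the array that are not members, 68 were measured, of which 35 had positive and 33 negative differences, with a median of 0.018. None of these 68 genes reached 2-fold in either direction (0 higher and 0 lower), beside the 2.04% and 2.71% of all measured genes. Those shares include more genes detected on 1 array only. With detection required on both arrays, 63 of the 68 were measured, beside 107 higher and 164 lower of 12578 genes. With these settings Gda and Adora2a were the only 2 of 77 measured purine genes past 2-fold. With spike-in centring the 68 genes were 16 positive and 50 negative with a median of -0.17, close to that of all measured genes, so that the directions below are relative to the 75th percentile. In that scaling 1 breakdown gene was positive and 10 negative, 1 salvage gene positive and 4 negative, and 3 nucleotidases positive and 6 negative. The ectonucleotidase list had 2 positive and 9 negative genes, and the transporter list 2 positive and 8 negative. Of the P2 receptors 2 were positive and 9 negative. The genes missing from these counts had a bound that no longer gave a difference.

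Within breakdown, 11 of 14 genes were measured, 5 of them positive and 6 negative. Values near 0 were seen for Ampd2 (-0.0071) and Ampd3 (-0.0044), which deaminate AMP, and for Pnp2 (0.00025), a second nucleoside phosphorylase. Aox1, an aldehyde oxidase related to xanthine dehydrogenase, was lower with a difference of -0.58, which is a bound because it was not detected with GW4064. Uox, which degrades uric acid further, was detected on neither array by either of its 2 probes. In salvage, 4 of the 5 measured genes were positive and Hprt was negative. Aprt, which salvages adenine, had signals of 32860 and 40301, a difference of 0.23 with a copy SD of 0.065 and a software error of 0.20.

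De novo synthesis builds the purine ring anew, and all 15 genes of that list were measured. Of these, 10 were positive and 5 negative, with a median of 0.091. The largest value was that of Impdh1, an IMP dehydrogenase that leads to guanine nucleotides, with signals of 2516 and 3954 and a difference of 0.59 with a copy SD of 0.073. Adssl1, of the adenine branch, had 0.38 and Pfas, of the shared early steps, had 0.37. The Adssl1 spot had 8 neighbours with an 8-fold difference within 300 µm, and the part of the slide in its value was not tested. Without such areas 11 of the 15 genes were measured, 7 of them positive and 4 negative. Impdh2, the paralog of Impdh1, had 0.32, and Gmps, which completes GMP, had 0.30 as a mean over 3 probes from 0.017 to 0.72. The lowest value was that of Gart with -0.077, and Ppat, the first committed step, had 0.046. With spike-in centring 6 of the 15 were positive and 9 negative, with a median of -0.10.

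The nucleotidases inside the cell had 9 measured genes, of which 6 were positive and 3 negative. Samhd1, which breaks down deoxynucleotides, was the lowest with -0.40 and -0.33 on its 2 probes, from signals of 7924 and 31466 with DMSO to 6302 and 26170 with GW4064.

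The ectonucleotidase list was broader than its name, since it took in the whole Entpd family and the NAD enzymes Cd38 and Bst1. Of its 12 measured genes 5 were positive and 7 negative, with a median of -0.15. Cd38, an ectoenzyme that consumes NAD, had the largest positive value of 0.88, from low signals of 22.6 and 43.5 and with a copy SD of 0.28. Enpp1, which cleaves ATP to AMP, had -0.41. The nucleoside transporter list also took in Abcg2, Abcc4, Panx1, Ank and Slc2a9. Among its 11 measured genes 4 were positive and 7 negative, from Ank, a pyrophosphate and ATP exporter, with -0.44 to the urate transporter Slc2a9 with 0.31. Slc29a1, the main equilibrative nucleoside transporter, had -0.21, and both probes of the lysosomal Slc29a3 had -0.43. The P2 receptors, which sense ATP, ADP and UDP before these are broken down, were 4 positive and 7 negative. P2rx4 had -0.13 and P2rx7 0.15. P2ry13 was at least 1.83-fold lower, being undetected with GW4064, and P2rx6 was at least 1.21-fold higher, being undetected with DMSO. The P2rx6 bound, 0.28 on the log2 scale, was smaller than its copy SD of 0.44, so its direction is uncertain.

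**Figure D4:**
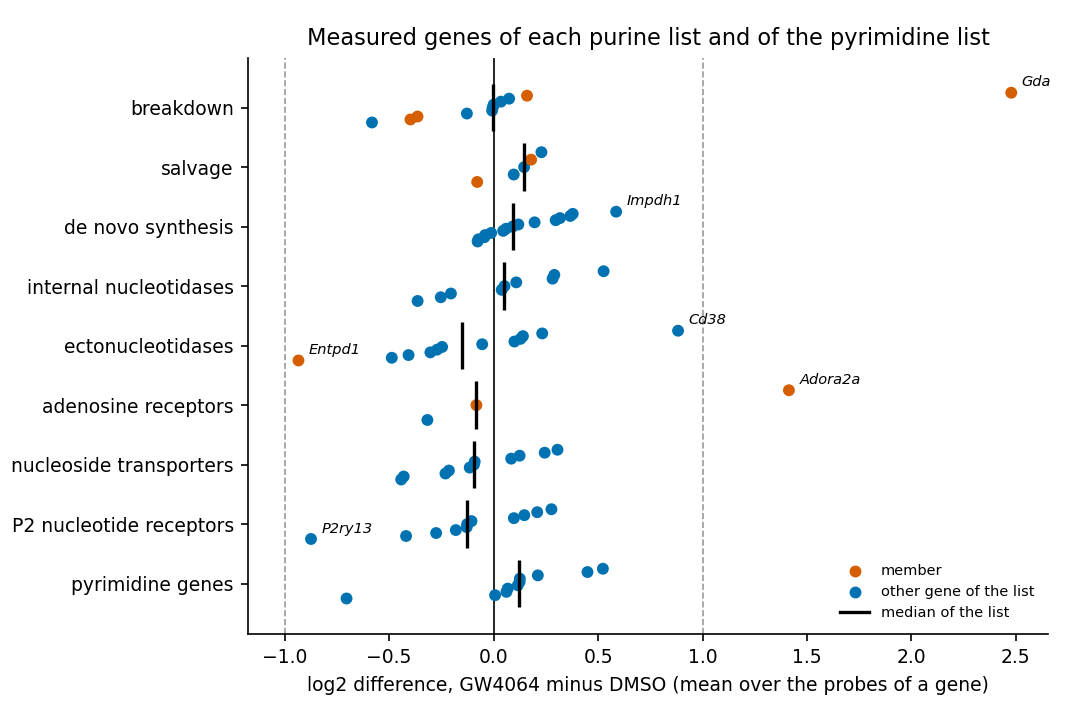
Log2 difference (GW4064 minus DMSO, mean over the probes of a gene) of every measured gene of the 8 purine lists and of a list of pyrimidine genes, with members in orange, other genes in blue and the median of each list as a black bar. Gda (2.48) and Adora2a (1.41) lie beyond the dashed 2-fold lines, and all other genes lie between them.

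The values of the members were recomputed under 11 other settings of scaling, background, filter and choice of probe. Some of these settings could not move the values. No spot of a member was marked, and all 9 measured members were detected on both arrays. Keeping marked spots and changing the filter on dim probes therefore returned the same numbers, and the deposited log2 table differed only by its constant of 0.0022. Gda stayed between 2.14 and 2.49 and Adora2a between 0.71 and 1.495, and Entpd1 lay between -1.13 and -0.86. Of the 9 measured members, 7 had the same sign in every setting that measured them, and the exceptions were Ada and Adk, both with spike-in centring.

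**Figure D5:**
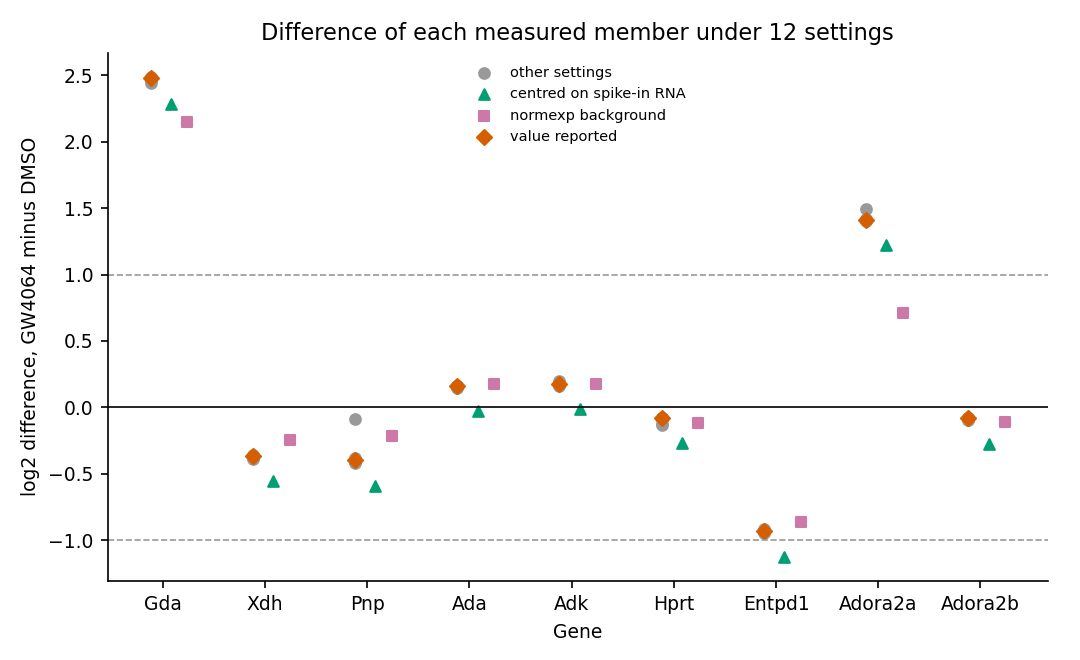
Log2 difference (GW4064 minus DMSO) of each of the 9 measured members under 12 settings, with the reported value (diamond), spike-in centring (triangle), the normexp background correction (square) and all other settings (grey circles). Gda lies above 2 in each, Adora2a drops to 0.71 with normexp, and Entpd1 crosses the dashed 2-fold line (-1.13) with spike-in centring.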

How the data were processed

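Total RNA of 1 DMSO and 1 GW4064 culture was hybridised by the authors to Agilent 44K mouse arrays of 1 slide. The authors deposited the intensity of each spot from Feature Extraction 10.7.1.1, background-subtracted and detrended within an array but unscaled between them. A log2 table was deposited too. The difference between its columns (medians of 0.035 and -0.051) equalled the one computed here within 0.001 for all 39200 probes apart from a constant of 0.0022, and on what baseline its probes are centred is unknown.

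Here processed signals were taken to log2 and shifted by the 75th percentile of the non-control spots (1209 and 1265). Marked spots were left out, spots of 1 probe averaged and probes of 1 gene averaged. For a probe detected on 1 array only, the lowest detected value of the other array, or the probe's own value if higher, gave a bound ("at least N-fold"). Symbols came from RefSeq transcripts of GRCm38.p6. Coordinates are left out because the array was designed on another build. The copy SD came from 371 probes with at least 8 of 10 spots left. The main calculation was tested on simulated 4-fold changes of detected probes. Dim probes, bounds, the other settings and the copy SD were not covered by that test.

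Members and lists were chosen with earlier results of these data known. Named were all members, the remaining adenosine receptors, the highest and lowest gene of each list (1 of these is not reported here) and any list gene past 2-fold. Further list genes (Ampd2, Ampd3, Pnp2, Uox, Adssl1, Pfas, Impdh2, Gmps, Ppat, Enpp1, Slc29a1, Slc29a3, P2rx4, P2rx7 and Tk1) were named for their roles after their values were seen. A planned motif search was not run, since no promoter sequence was used here. The software was Python 3.11.15 (with numpy 2.4.6, pandas 2.3.3 and statsmodels 0.14.6) and R 4.3.3 with limma 3.58.1 for normexp.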

Additional observations from a re-analysis of the deposited data

How the results depend on the processing

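No paired analysis was possible because there was a single array for each condition, and for the same reason no array could be left out. The counts past 2-fold (2 members higher and 0 lower, 2 purine list genes higher and 0 lower) were within 1.5 times under quantile normalization, median centring, loess (span 0.3), the deposited log2 table, the brightest probe, detection required on both arrays and without areas of 8-fold spots, where Pnp could not be measured. Keeping marked spots added P2ry12 (3 list genes higher). With spike-in centring 1 member (Entpd1) and 2 list genes (Entpd1 and P2ry13) were lower. The normexp correction left 1 member and 1 list gene higher, Gda. Without a filter on dim probes 1 list gene was lower, P2ry13 (-2.10), and Dpp4 (1.68) was higher. A threshold of 1.5-fold gave 2 members higher and 1 lower, with 4 list genes higher and 2 lower, and a threshold of 4-fold left 1 member and 1 list gene higher, again Gda. Over all genes, 276 were higher and 367 lower by 2-fold or more, against 211 and 522 with spike-in centring (28.8% of those past 2-fold higher in place of 42.9%), 72 and 64 with normexp (52.9% higher), 698 and 767 without the filter, and 107 and 164 with detection required on both arrays. Without areas of 8-fold spots, 168 were higher and 202 lower, with 11506 genes measured. Of the members' single values, 83 stayed within 1 copy SD and 15 did not, 9 of them with spike-in centring, 5 with normexp and 1 with the brightest probe. Part of the 83 was fixed in advance, since the settings of marked spots and dim probes could not change these values. Low signals limit Adora2a (copy SD 0.14), the dimmer Pnp probe (0.21) and Cd38 (0.28), and the bounds of Aox1 (0.43), P2rx6 (0.44) and P2ry13 (0.54).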

Other observations

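Pyrimidine genes, listed for comparison with the purine pathway, were mostly slightly higher with GW4064. Of 10 measured genes 9 were positive and 1 negative, with a median of 0.12, beside 51.6% positive and a median of 0.0068 over all measured genes, and 0 reached 2-fold in either direction. With spike-in centring 3 were positive and 7 negative, with a median of -0.071 beside -0.18 over all measured genes. Tk1, the thymidine kinase of dividing cells, had 0.45, and Upp1, which splits uridine, had 0.52 from signals of 70.8 and 106. Dpys, of pyrimidine breakdown, was the negative one with -0.70 as a mean over probes of -0.87 and -0.54.

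By direction, 2 of 3 measured T cell markers and 2 of 3 dendritic cell markers were positive, while 2 of 2 B cell markers, 2 of 2 mast cell and basophil markers and 4 of 5 erythroid markers were negative. With spike-in centring 0 of the 3 T cell markers were positive, and the other counts were as given. Flt3, a growth factor receptor of dendritic cell precursors, was higher by at least 2.31 on the log2 scale, from signals of 10.5 with DMSO, where it was not detected, and 81.5 with GW4064 on 1 probe, and its second probe was detected on neither array. The first probe had 3 neighbours within 300 µm with an 8-fold difference and a median difference of 0.62 over the neighbouring spots, and the part of the slide was not tested. Without areas of 8-fold spots, or with detection required on both arrays, Flt3 was not measured and the median of the dendritic cell markers was 0.15 in place of 0.44. Past 2-fold in the other direction were Klf1 of the erythroid list, at least 3.75-fold lower, and Ms4a1 of the B cell list, at least 2.47-fold lower. Both were undetected with GW4064, and their signals with DMSO were low, 54.2 and 35.8. The Klf1 spot had 6 neighbours within 300 µm with an 8-fold difference and the Ms4a1 spot had 0. Flt3, Klf1 and Ms4a1 were named after their values were seen.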
